A study of Mus musculus with 18 samples.

Results

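Myeloid progenitors (MP) kept in culture for 2 or 4 days under the title code N were set against haematopoietic stem cells kept the same way, day by day. The members were 6 of the 18 libraries of the series, taken by their titles: MP 2N and MP 4N on one side, and LT-HSC 2N, ST-HSC 2N, LT-HSC 4N and ST-HSC 4N on the other, where LT-HSC and ST-HSC are long-term and short-term haematopoietic stem cells. All 6 came from C57BL/6 all-iPS mice, animals grown from induced pluripotent stem cells, whose genome carries oct4, sox2, klf4 and c-myc under doxycycline control. The titles give only the codes N and D. The series design describes cultures without doxycycline at the same times, and N was read as these. The field for doxycycline has yes for each of the 6, but here the title codes were used. Sox2 reached at most 1.5 FPKM (fragments per kilobase, scaled to the mapped total) in the 6 libraries. Pou5f1, which encodes Oct4, and Nanog, which is not among the inducible factors, were listed at 0 in all of them. Klf4 had 3.76 and 22.6 FPKM in MP 2N and MP 4N and at most 1.33 in the stem libraries. The level of Myc, the gene of c-myc, is not given here. The summed level of the 15 induced factors and induction-linked genes listed was 328 and 129 FPKM in MP 2N and MP 4N. In LT-HSC 2N, ST-HSC 2N, LT-HSC 4N and ST-HSC 4N it was 191, 350, 324 and 207 FPKM. Whether the factors were induced in N was not tested. Each library was made from 25 hand-picked cells, and each combination of cell type and day was a single library. Mouse age, number of animals, sort markers and culture medium are not stated in the labels or the design text. In such pools fewer cells of a type and less RNA per cell cannot be told apart.

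Blood stem cells give rise to myeloid progenitors, which go on to make granulocytes, monocytes and, from other branches, red cells and platelets. Granulocyte progenitors make their granule proteins in waves: the primary granules with myeloperoxidase and serine proteases come first, and the proteins of later granules follow in more mature cells. The transcription factors PU.1 (gene Sfpi1 in the table) and the C/EBP family drive this programme, while Hox genes, Meis1 and Mecom belong to the stem cell state.

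The 6 libraries were alike in size, with a total of 735422 to 765861 FPKM, 10702 to 11118 genes at 1 FPKM or more and 27.65% to 31.68% of the total in the 100 highest genes; read depth is unknown. Of 12 markers of myeloid progenitors, 10 were higher in MP than in both stem libraries of the same day at both days, the others being Csf3r and Irf8. Of 12 stem cell markers, 7 were lower in MP than in both stem libraries at both days and none was higher. Slamf1, a marker of long-term stem cells, was listed at 0 in both MP and both ST-HSC libraries and had 4.13 FPKM in LT-HSC 2N and 19.1 in LT-HSC 4N. Where 4 stem cell values are given in a row, they are those of LT-HSC 2N, ST-HSC 2N, LT-HSC 4N and ST-HSC 4N. Procr, another stem cell surface marker, did not follow the labels, at 10.4 and 10.1 FPKM in MP 2N and MP 4N, against 12.4 in LT-HSC 2N, 27.3 in ST-HSC 2N, 9.22 in LT-HSC 4N and 0 in ST-HSC 4N. Of 5 genes that every cell uses, Actb (436 to 883 FPKM) and B2m (1303 to 4095 FPKM) were high in all 6 libraries. Gapdh, Rpl3 and Rps6 lay at 7.54 FPKM or less. Gapdh and Rpl3 were listed at 0 in LT-HSC 2N, so a listed 0 need not mean absence. Across the 11684 genes tested, which are not independent replicates, MP correlated with ST-HSC at 0.892 on day 2 and 0.865 on day 4, and with LT-HSC at 0.801 and 0.777.

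Primary granule genes were among the most abundant in MP. Elane (neutrophil elastase, ENSMUSG00000020125) had 7339 and 5551 FPKM in MP 2N and MP 4N, against 4.6 in LT-HSC 2N, 88.1 in ST-HSC 2N, 3.12 in LT-HSC 4N and 137 in ST-HSC 4N. Prtn3 (proteinase 3, ENSMUSG00000057729) had 15215 and 13400 FPKM in the MP libraries, against 102, 2874, 165 and 4277 in the same 4 stem libraries. Mpo (myeloperoxidase, ENSMUSG00000009350) had 7849 and 8538 FPKM in MP, against 16.8 in LT-HSC 2N, 2109 in ST-HSC 2N, 10.7 in LT-HSC 4N and 4315 in ST-HSC 4N. Both MP libraries stood above all 4 stem libraries for each gene, and ST-HSC stood between MP and LT-HSC, closer on the log scale to MP for Prtn3 and Mpo and to LT-HSC for Elane. Ctsg, the gene of cathepsin G, had 2709 and 1889 FPKM in MP, against 1.496, 395, 1.49 and 613 in stem cells. Ms4a3, a membrane protein of granulocyte progenitors, had 1662 and 1239 FPKM in MP, against 183 in ST-HSC 2N and 313 in ST-HSC 4N, and was listed at 0 in both LT-HSC libraries.

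The 250 bases before the start of 4 of these genes, and of 2 Gimap genes that were low in MP, are printed to show the sequence in front of genes that stood at opposite ends of the comparison. They come from RefSeq, build GRCm38.p6, while the expression values were made on mm9. Capitals mark matches on either strand to GAGGAAG, a core of PU.1 sites, or to TGTGGT, a core of RUNX sites. TTGCNNAA, for C/EBP sites, and AGATAA, for GATA sites, were also searched on both strands and had no match in these 6 windows. Matches of different motifs shared 0 bases. Elane lies at chr10:79886062-79886311 on the plus strand, 6645 bases from the start of Prtn3 at chr10:79879417-79879666, also plus. Mpo lies at chr11:87793534-87793783 (plus), Ctsg at chr14:56102575-56102824 (minus), Gimap1 at chr6:48738797-48739046 (plus) and Gimap6 at chr6:48708245-48708494 (minus).
Elane: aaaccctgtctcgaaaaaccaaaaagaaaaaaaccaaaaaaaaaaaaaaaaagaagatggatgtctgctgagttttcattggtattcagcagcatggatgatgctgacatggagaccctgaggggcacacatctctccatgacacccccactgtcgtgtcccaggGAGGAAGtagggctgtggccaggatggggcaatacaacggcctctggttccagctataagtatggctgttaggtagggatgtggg
Prtn3: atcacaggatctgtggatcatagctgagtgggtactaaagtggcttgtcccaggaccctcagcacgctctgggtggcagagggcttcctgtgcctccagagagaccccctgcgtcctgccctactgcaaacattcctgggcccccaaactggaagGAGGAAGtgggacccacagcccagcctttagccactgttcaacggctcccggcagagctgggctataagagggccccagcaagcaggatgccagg
Mpo: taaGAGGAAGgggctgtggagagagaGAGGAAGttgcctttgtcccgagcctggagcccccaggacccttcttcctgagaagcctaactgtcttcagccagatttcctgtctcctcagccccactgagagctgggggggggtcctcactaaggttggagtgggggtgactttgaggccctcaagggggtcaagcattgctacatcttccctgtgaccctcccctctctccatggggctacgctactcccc
Ctsg: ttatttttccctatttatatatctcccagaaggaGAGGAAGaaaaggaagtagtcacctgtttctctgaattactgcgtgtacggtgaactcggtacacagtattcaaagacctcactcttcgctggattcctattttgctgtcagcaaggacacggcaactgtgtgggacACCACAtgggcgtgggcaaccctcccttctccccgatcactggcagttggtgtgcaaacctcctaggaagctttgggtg
Gimap1: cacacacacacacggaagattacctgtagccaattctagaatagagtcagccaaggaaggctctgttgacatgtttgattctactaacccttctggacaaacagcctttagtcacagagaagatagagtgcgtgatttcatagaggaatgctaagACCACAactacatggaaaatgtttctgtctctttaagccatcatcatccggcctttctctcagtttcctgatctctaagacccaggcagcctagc
Gimap6: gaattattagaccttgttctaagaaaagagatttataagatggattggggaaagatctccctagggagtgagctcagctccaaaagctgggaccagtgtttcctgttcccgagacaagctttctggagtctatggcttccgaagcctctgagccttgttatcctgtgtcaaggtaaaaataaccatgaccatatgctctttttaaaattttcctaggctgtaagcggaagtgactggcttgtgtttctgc
GAGGAAG occurred once in front of Elane, Prtn3 and Ctsg and 2 times in front of Mpo, and not in front of Gimap1 or Gimap6. It was in 10.4% of 27025 RefSeq windows and in 11.1% of the 7667 windows that matched a tested gene by symbol. Among 14 primary granule genes with a window it was in front of 5 (35.7%), which adds Ctsc to those printed. Among 8 Gimap genes it was in front of Gimap4 alone (12.5%). TGTGGT was in front of 5 of the 14 (35.7%) and 3 of the 8 (37.5%), against 10.8% of the windows of tested genes. A match describes these letters and is not a measured binding site.

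Of 16 primary granule genes listed, 15 were tested and Lyz1 was listed at 0 in all 6 libraries. Their median log2 difference between MP and stem cells was 2.93, against -0.06 over all genes tested, and 14 of the 15 were above both stem libraries of the same day at both days (15.4% of all genes). Log2 values here are of FPKM + 1, so differences of genes near 0 are understated. Prssl1, the granule serine protease also called Prss57, had 315 and 177 FPKM in MP against 12.8, 73.9, 29.2 and 105 in LT-HSC 2N, ST-HSC 2N, LT-HSC 4N and ST-HSC 4N. Gstm1, a glutathione transferase, had 96.2 and 48.8 FPKM in MP against 5.50, 15.2, 5.73 and 10.5 in stem cells. Srgn, the proteoglycan that packs granule contents, differed less, at 4369 and 1922 FPKM in MP against 2329, 1520, 1684 and 989 in LT-HSC 2N, ST-HSC 2N, LT-HSC 4N and ST-HSC 4N. Lyz2, lysozyme, stood apart at day 4, at 289 and 1942 FPKM in MP 2N and MP 4N against 288, 248, 146 and 36.5 in stem cells. Plac8 was above both stem libraries of day 2 but level with ST-HSC at day 4, at 3659 and 2232 FPKM in MP against 46.4, 944, 74.1 and 2250 in stem cells.

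**Figure D1:**
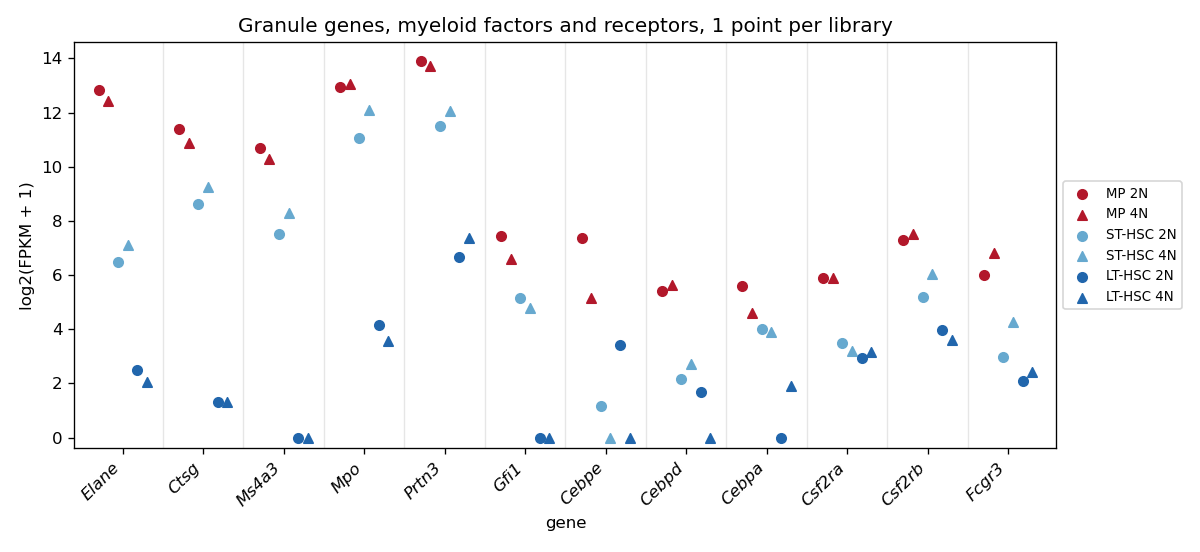
Log2(FPKM + 1) of granule genes, myeloid transcription factors and receptors, with 1 point per library: MP in red, ST-HSC in light blue and LT-HSC in dark blue, circles for day 2 and triangles for day 4. Both MP points lie above all 4 stem cell points for every gene shown, and for Elane, Ctsg, Ms4a3, Mpo and Prtn3 the ST-HSC points lie between MP and LT-HSC.

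Across all genes the test used limma with culture day as a term, so that LT-HSC and ST-HSC of a day, and both days, gave the spread. With 1 library per group, its p-values measure the spread between these cell types and days and not between animals or cultures. It called 0 of 11684 genes higher (0.0%) and 0 lower (0.0%) at an adjusted p under 0.05, while 669 (5.73%) were higher and 815 (6.98%) lower at an unadjusted p under 0.05. For Elane the difference was 8.11 ± 1.71 (SE) with a limma adjusted p of 0.178, and for Mpo it was 5.29 ± 3.21 with 0.572, since the gap between ST-HSC and LT-HSC counted as spread. Against LT-HSC alone, a fit with 1 residual degree of freedom, limma called 281 genes higher in MP (2.4%) and 290 lower (2.48%). Against ST-HSC alone it called 71 higher (0.625%) and 36 lower (0.317%). Of the 15 primary granule genes, 11 passed as higher in MP against LT-HSC alone and 7 against ST-HSC alone. Elane differed by 10.4 ± 0.301 from LT-HSC (SE, limma adjusted p = 3.04e-07) and by 5.85 ± 0.277 from ST-HSC (adjusted p = 4.56e-04). In these fits against 1 stem type the 2 days stood in for replicates, and limma borrowed spread from other genes. Their p-values do not measure the spread between animals or cultures either. A fit with 1 term per cell type, chosen after the data were seen, called 121 genes higher (1.04%) and 130 lower (1.11%), with 9 of the 15 primary granule genes among the higher ones.

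A rule of fold alone gave the genes that stood apart from every stem library of their day. MP was above both stem libraries of the same day by at least 4-fold at both days for 77 genes (0.659%), and below both by as much for 66 (0.565%), on the scale of FPKM + 1. Of the 77 higher genes 22 were listed at 0 in all 4 stem libraries, and of the 66 lower genes 15 were listed at 0 in both MP libraries, so that their size rests on the added 1. Elane, Fcer1a, Hsd11b1, Cpa3, Cebpe and Tifab had the largest differences among the higher genes, and Krt18, Gimap6, Gm8292, 9030619P08Rik, Plscr2 and Cd27 among the lower. When MP was set against LT-HSC alone, 288 genes were 4-fold higher at both days (2.46%) and 342 lower (2.93%); against ST-HSC alone 123 (1.05%) and 111 (0.95%) were. ST-HSC was itself 4-fold above LT-HSC at both days for 119 genes (1.02%) and below for 179 (1.53%). Among the 288 genes higher in MP than in LT-HSC, ST-HSC was less far from MP than the midpoint between MP and LT-HSC at both days for 89 (30.9%). It was at least that far at both days for 81 (28.1%). Among the 342 lower genes these counts were 117 (34.2%) and 89 (26.0%). Distance was taken in either direction, so the second count can include genes where ST-HSC lay beyond MP.

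**Figure D2:**
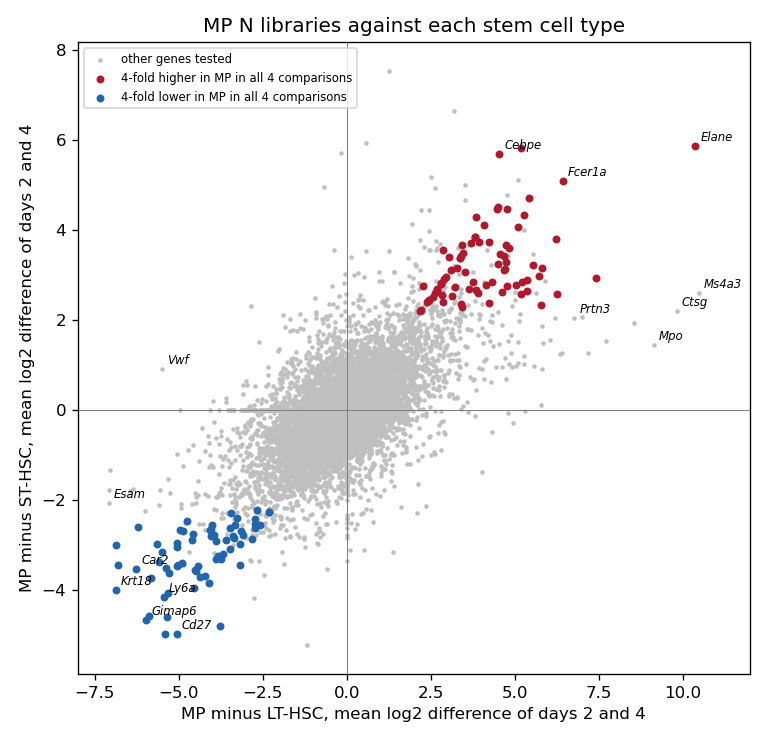
Mean log2 difference of days 2 and 4 between MP and LT-HSC (x axis) and between MP and ST-HSC (y axis), for each of 11684 genes. The 77 genes 4-fold higher in MP in all 4 comparisons are red and the 66 lower ones blue; Mpo, Prtn3, Ctsg and Ms4a3 lie far to the right but lower than Elane, since ST-HSC carried them too.

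Several transcription factors of the granulocyte line were higher in MP. Cebpe, the C/EBP factor of late granulocyte maturation, had 163 and 34.2 FPKM in MP 2N and MP 4N, against 9.78 in LT-HSC 2N, 1.22 in ST-HSC 2N and 0 in both day-4 stem libraries. Cebpd had 41.4 and 48.7 FPKM in MP, against 2.17, 3.45, 0 and 5.53 in LT-HSC 2N, ST-HSC 2N, LT-HSC 4N and ST-HSC 4N. Both MP libraries were above every stem library for both genes. Gfi1, a repressor that granulocytes need, had 172 and 94.7 FPKM in MP, against 34.7 and 26.2 in ST-HSC 2N and ST-HSC 4N and 0 in both LT-HSC libraries. Cebpa, which founds the granulocyte-monocyte line, had 47.5 and 23.0 FPKM in MP, against 0, 15.04, 2.76 and 14.1 in stem cells. Against LT-HSC alone, Cebpe (limma adjusted p = 0.00311), Cebpd (0.00604), Gfi1 (4.80e-04) and Cebpa (0.0232) passed as higher in MP. Against ST-HSC alone Cebpe (limma adjusted p = 0.00702), Cebpd (0.0266) and Gfi1 (0.0354) passed and Cebpa (0.31) did not, and against both stem types none did (0.0609 for Cebpe, 0.125 for Cebpd, 0.369 for Gfi1 and 0.394 for Cebpa).

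Sfpi1, the gene of PU.1, was high everywhere, at 548 and 940 FPKM in MP against 167, 235, 259 and 514 in LT-HSC 2N, ST-HSC 2N, LT-HSC 4N and ST-HSC 4N. Irf8, a factor of monocytes and dendritic cells, did not separate MP from ST-HSC, at 53.4 and 139 FPKM in MP against 1.10 in LT-HSC 2N, 40.0 in ST-HSC 2N, 1.27 in LT-HSC 4N and 190 in ST-HSC 4N. Its log2 difference was 2.65 ± 2.02 (SE) against both stem types and -0.02 ± 0.328 against ST-HSC alone. Klf4, both a monocyte factor and a factor of the inducible set, had 3.76 and 22.6 FPKM in MP and at most 1.33 in the stem libraries. Tcfec, of the Mitf family, had 224 and 272 FPKM in MP against 36.4, 65.7, 9.75 and 35.9 in stem cells, and Xbp1, which builds secretory capacity, 595 and 591 against 174, 276, 292 and 366 in stem cells. Of 20 myeloid transcription factors tested, 14 were above both stem libraries of the day at both days (15.4% of all genes were), none was below, and the median difference was 1.63.

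The receptors for myeloid growth factors differed in part. Csf2ra, the specific chain of the GM-CSF receptor (ENSMUSG00000059326), had 58.6 and 58.0 FPKM in MP, against 6.67, 10.2, 8.01 and 8.21 in LT-HSC 2N, ST-HSC 2N, LT-HSC 4N and ST-HSC 4N, a difference of 2.69 ± 0.387 (SE; limma adjusted p = 0.0642 against both stem types, 0.0122 against LT-HSC alone and 0.0354 against ST-HSC alone). Its partner Csf2rb had 157 and 181 FPKM in MP against 14.8, 35.9, 11.3 and 65.1 in stem cells, and the close copy Csf2rb2, which may share reads with it, 77.3 and 64.0 against 10.8, 10.8, 2.62 and 22.6 in stem cells. Csf1r, the receptor of macrophage growth factor, had 14.5 and 76.9 FPKM in MP against 2.07, 3.60, 0.0632 and 30.8 in stem cells. Csf3r, the receptor of granulocyte growth factor, overlapped between the groups, at 12 and 21.8 FPKM in MP against 7.57, 21.3, 3.75 and 11.1 in stem cells. Of 22 receptors tested, 12 were above both stem libraries of the day at both days (15.4% of all genes were) and 1 below (17.9%), with a median difference of 1.18; Epor, Il5ra, Lifr and Il13ra1 fell under the filter.

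Genes of phagocytes and Fc receptors were mostly higher in MP as well. Of 26 tested, 20 were above both stem libraries of the day at both days (15.4% of all genes were). Their median difference was 2.49. As higher, 6 met the 4-fold rule (0.659% of all genes did) and 12 passed against LT-HSC alone (2.4%). Clec4a2, a lectin of myeloid cells, had 22.7 and 27.1 FPKM in MP, against 2.16 in LT-HSC 2N, 0.767 in ST-HSC 2N and 0 in both day-4 stem libraries. Fcgr3, a low-affinity receptor for IgG, had 63.1 and 110 FPKM in MP, against 3.23, 6.94, 4.31 and 18.3 in LT-HSC 2N, ST-HSC 2N, LT-HSC 4N and ST-HSC 4N. Clec5a, another myeloid lectin, had 11.7 and 39.4 FPKM in MP, against 4.82 in ST-HSC 4N and 0 in the other 3. For all 3 genes both MP libraries were above every stem library. The summed level of the list was 2941 and 5756 FPKM in MP 2N and MP 4N, against 618 to 1693 in the stem libraries. Among macrophage and dendritic genes 13 of 21 tested were above both stem libraries of the day at both days (15.4% of all genes were), among them Ly6c2, a marker of monocytes, at 126 and 146 FPKM in MP against 11.2, 5.28, 0 and 6.39 in stem cells; its reads may be shared with Ly6c1. F13a1, the coagulation factor XIII chain of monocytes, had 11.3 and 57.9 FPKM in MP, against 6.61 in ST-HSC 4N and 0 in the other 3. C1qa, C1qb, C1qc and Marco, genes of mature macrophages, were listed at 0 in all 6 libraries. Of 18 chemokine and cytokine genes tested 7 were above and 2 below both stem libraries of the day at both days, against 15.4% and 17.9% of all genes. Ccr1, a chemokine receptor of myeloid cells, had 21.5 and 24.8 FPKM in MP against 3.32, 1.19, 0 and 2.83 in stem cells. Ccl5 was listed at 0 in both MP libraries, against 8.29, 8.56, 10.03 and 4.43 in LT-HSC 2N, ST-HSC 2N, LT-HSC 4N and ST-HSC 4N.

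The genes with the smallest p as higher in MP were not all of the granulocyte line. Hsd11b1, which regenerates active glucocorticoid, had 51.0 and 58.9 FPKM in MP, against 1.32 in LT-HSC 2N and 0 in the other 3 stem libraries (5.50 ± 0.614, SE; limma adjusted p = 0.0609). Tifab had 19.8 and 89.5 FPKM in MP, against 1.80 in ST-HSC 4N and 0 in the rest. G0s2, an inhibitor of fat breakdown, had 23.5 and 18.8 FPKM in MP and was listed at 0 in all 4 stem libraries. Cytip, a cytohesin-binding protein of leukocytes, had 59.0 and 145 FPKM in MP against 7.19, 10.3, 12.8 and 22.2 in stem cells. The same 12 held Cebpe, Csf2ra, Clec4a2, Gm14699, Gpr160 (27.7 and 40.3 FPKM in MP against 0, 0, 0 and 3.35 in stem cells), Atp6v0b, a proton pump subunit at 553 and 975 FPKM in MP against 223 to 339, and the mast cell and basophil genes Ms4a2 and Fcer1a.

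Of 21 mast cell and basophil genes tested, 7 were above both stem libraries of the day at both days and 1 below (15.4% and 17.9% of all genes were), and their median was 3.03 in the fit but 0.0 between MP 2N and LT-HSC 2N. Fcer1a, the alpha chain of the high-affinity IgE receptor (ENSMUSG00000005339), had 35.8 and 199 FPKM in MP 2N and MP 4N, against 5.41 in ST-HSC 4N and 0 in the other stem libraries. Ms4a2, its beta chain, had 35.6 and 19.4 FPKM in MP, against 0.532 in ST-HSC 4N and 0 in the others. Cpa3, the carboxypeptidase of mast cells, had 45.2 and 644 FPKM in MP, against 7.51 in ST-HSC 2N, 60.6 in ST-HSC 4N and 0 in both LT-HSC libraries. MP 4N alone carried the mast cell proteases Tpsab1 (1183 FPKM) and Cma1 (737 FPKM), both listed at 0 in the other 5 libraries, and 525 FPKM of Gzmb against at most 2.84 elsewhere. The basophil protease genes Mcpt8 and Prss34, chosen after their values were seen, leaned to day 2, at 469 and 91.1 FPKM for Mcpt8 and 234 and 0 for Prss34 in MP 2N and MP 4N, against 0, 59.0, 0 and 87.3 and 0, 0, 0 and 11.5 in LT-HSC 2N, ST-HSC 2N, LT-HSC 4N and ST-HSC 4N. The summed level of all mast cell and basophil genes listed was 1176 and 3578 FPKM in MP, against 197 to 296 in the stem libraries, while the mast cell proteases Mcpt1, Mcpt2 and Mcpt4 were listed at 0 in all 6. Ptger3, a prostaglandin receptor, was the gene below, at 20.2 and 18.8 FPKM in MP against 61.4, 47.6, 74.4 and 42.95 in stem cells, and Slc18a2 and Rab27b were highest in LT-HSC, all 3 named after their values were seen. Of these 21 genes, 4 met the 4-fold rule as higher (0.659% of all genes did), and how far such cells set the other differences was not tested.

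Of 19 later granule genes tested, 9 were above both stem libraries of the day at both days (15.4% of all genes were) and none below, with a median of 2.69, but several of the most abundant were also high in LT-HSC 2N. Camp, the cathelicidin precursor, had 2780 and 11.1 FPKM in MP 2N and MP 4N, against 1266 in LT-HSC 2N, 3.71 in LT-HSC 4N and 0 in both ST-HSC libraries. Ngp had 1676 and 1.20 FPKM in MP, against 799 in LT-HSC 2N, 1.05 in LT-HSC 4N and 0 in both ST-HSC libraries. S100a9 had 953 and 0 FPKM in MP, against 864 in LT-HSC 2N and at most 1.82 in the rest. For these 3 genes MP 2N and LT-HSC 2N were high and the other 4 libraries low. Lcn2 (350 and 52.9 FPKM in MP), S100a8 (805 and 131) and Ltf (134 and 0) were likewise high in LT-HSC 2N, at 494, 1275 and 228 FPKM, and at most 9.92 in the other stem libraries. The summed level of this list was 7651 and 1396 FPKM in MP 2N and MP 4N, against 5677 in LT-HSC 2N and 75.3 to 219 in the other 3 stem libraries. Fcnb, a ficolin, had 75.6 and 18.2 FPKM in MP against 4.92 in ST-HSC 4N and 0 in the other 3. Hp, haptoglobin, and Orm1 were the 2 of 19 tested that met the 4-fold rule (0.659% of all genes did as higher). Hp had 44.9 and 243 FPKM in MP against 9.12, 6.36, 0.598 and 19.3 in stem cells. Without LT-HSC 2N the difference was 7.22 ± 1.497 for Elane and -5.21 ± 0.796 for Gimap6 (SE), against 8.11 and -5.32 with it.

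**Figure D3:**
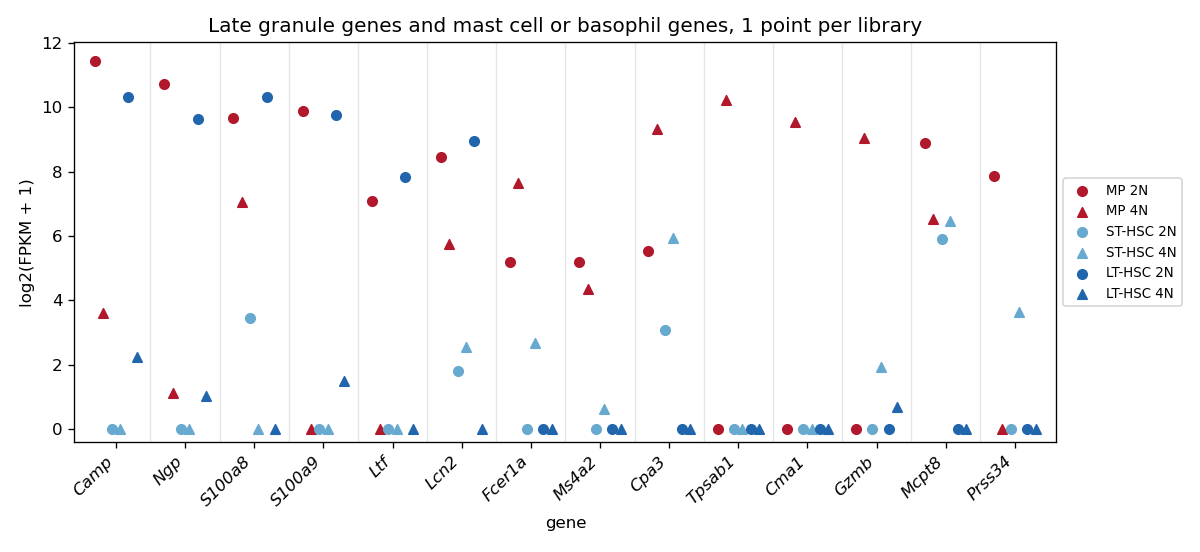
Log2(FPKM + 1) of late granule genes (left) and mast cell or basophil genes (right), with 1 point per library: MP in red, ST-HSC in light blue, LT-HSC in dark blue, circles for day 2 and triangles for day 4. Camp, Ngp and S100a9 are high in MP 2N and LT-HSC 2N, while Tpsab1, Cma1 and Gzmb are high in MP 4N alone.

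On the stem cell side the Gimap genes, which encode GTPases of lymphocytes and stem cells, were low in both MP libraries. Gimap6 (ENSMUSG00000047867) had 2.31 and 0 FPKM in MP 2N and MP 4N, against 92.5, 37.6, 137 and 55.1 in LT-HSC 2N, ST-HSC 2N, LT-HSC 4N and ST-HSC 4N. Gimap1 had 6.71 and 2.53 FPKM in MP against 96.3, 96.0, 148 and 67.3 in stem cells, a difference of -4.25 ± 0.444 (SE; limma adjusted p = 0.0609). Gimap5 had 2.68 and 0 FPKM in MP against 26.6, 16.9, 35.2 and 7.16 in stem cells, and Gimap9 14.2 and 0.912 against 37.2, 36.7, 26.0 and 32.5 in stem cells. All 4 tested members were lower in both MP libraries than in every stem library, with a median of -3.80, and 3 met the 4-fold rule (0.565% of all genes did). Gimap3, Gimap4 and Gimap7 were listed at 0 in all 6 libraries, Gimap8 fell under the filter, and reads may be shared among these neighbouring genes.

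Of 29 stem and progenitor transcription factors tested, 18 were below both stem libraries of the day at both days (17.9% of all genes were). None was above, and the median was -2.00. As lower, 6 met the 4-fold rule (0.565% of all genes did) and 10 passed against LT-HSC alone (2.48%). Mycn, the Myc relative of stem cells (ENSMUSG00000037169), had 4.23 and 0 FPKM in MP, against 54.5, 68.5, 157 and 43.6 in LT-HSC 2N, ST-HSC 2N, LT-HSC 4N and ST-HSC 4N. Meis1, a cofactor of Hox proteins, had 6.83 and 1.92 FPKM in MP against 89.3, 41.6, 68.4 and 25.2 in stem cells. Hoxa7 had 5.58 and 0 FPKM in MP against 41.1, 32.8, 21.9 and 9.78 in stem cells. In these 3 genes both MP libraries lay below all 4 stem libraries. Msi2, an RNA-binding protein that stem cells use, had 3.74 and 0 FPKM in MP against 41.5, 48.4, 37.7 and 15 in stem cells. Tsc22d1 had 7.14 and 1.36 FPKM in MP against 66.8, 71.6, 118 and 45.3 in stem cells, and Sox4 had 10.5 and 5.30 against 36.3, 74.4, 102 and 96.5 in stem cells.

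Some factors marked LT-HSC more than ST-HSC. Mecom, needed for long-term stem cells, was listed at 0 in both MP libraries, against 28.8 FPKM in LT-HSC 2N, 4.84 in ST-HSC 2N, 14.7 in LT-HSC 4N and 1.38 in ST-HSC 4N. It differed by -4.43 ± 0.740 (SE; limma adjusted p = 0.00999) from LT-HSC alone and by -1.90 ± 0.926 (adjusted p = 0.443) from ST-HSC alone. Hlf had 0.937 and 0 FPKM in MP against 21.7, 10.3, 7.58 and 1.46 in stem cells. Of other factors in the list, Nkx2-3 was listed at 0 in both MP libraries against 16.2, 15.2, 3.71 and 6.30 in stem cells, and Erg had 5.40 and 1.28 against 22.6, 16.02, 23.3 and 18.7 in stem cells. Gata2 and Myb, used by both stem cells and progenitors, overlapped between the groups, Gata2 at 51.8 and 16.5 FPKM in MP against 70.3, 21.2, 64.8 and 23.6 in stem cells, and Myb at 89.2 and 26.4 against 64.6, 71.6, 43.4 and 68.2 in stem cells. Bmi1, a chromatin regulator of self-renewal, leaned the other way, at 8.31 and 20.1 FPKM in MP against 8.51, 7.55, 5.27 and 3.45 in stem cells.

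At the cell surface Ly6a, which encodes Sca-1 (ENSMUSG00000075602), was listed at 0 in both MP libraries, against 76.8, 20.2, 23.3 and 14.3 in stem cells FPKM in LT-HSC 2N, ST-HSC 2N, LT-HSC 4N and ST-HSC 4N. Cd34, a sialomucin of stem cells and progenitors (ENSMUSG00000016494), had 132 and 41.4 FPKM in MP against 487, 596, 575 and 442 in stem cells, a difference of -2.80 ± 0.367 (SE; limma adjusted p = 0.0609). Gpr56 had 29.4 and 2.31 FPKM in MP against 335, 156, 313 and 76.7 in stem cells. For all 3 genes both MP libraries were below every stem library. Cd27, a receptor of the TNF family, had 59.6 and 0 FPKM in MP 2N and MP 4N against 268, 272, 245 and 224 in stem cells. Kit overlapped, at 14.6 and 14.02 FPKM in MP against 26.9, 16.7, 14.6 and 7.68 in stem cells.

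Other surface genes were highest in LT-HSC. Esam, an adhesion molecule, was listed at 0 in both MP libraries, against 133 and 136 FPKM in LT-HSC 2N and LT-HSC 4N, 16.9 in ST-HSC 2N and 0 in ST-HSC 4N, and Vwf had 0 and 2.55 FPKM in MP against 97.7, 0, 71.1 and 0 in stem cells. Itga6, an integrin, had 1.05 and 0.522 FPKM in MP against 66.5, 18.9, 34.8 and 4.17 in stem cells. Prom1, the gene of CD133, went the other way, at 7.63 and 10.04 FPKM in MP against 0.233 in ST-HSC 4N and 0 in the other 3. Cd48, a marker of progenitors, had 55.0 and 95.6 FPKM in MP, against 95.5 and 221 in ST-HSC 2N and ST-HSC 4N and 8.0 and 14.5 in LT-HSC 2N and LT-HSC 4N. Of 28 stem cell surface genes tested, 12 were below both stem libraries of the day at both days (17.9% of all genes were) and 1 above (15.4%), with a median of -2.08. As lower against LT-HSC alone 12 passed (2.48% of all genes did), and against ST-HSC alone 3 (0.317%).

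**Figure D4:**
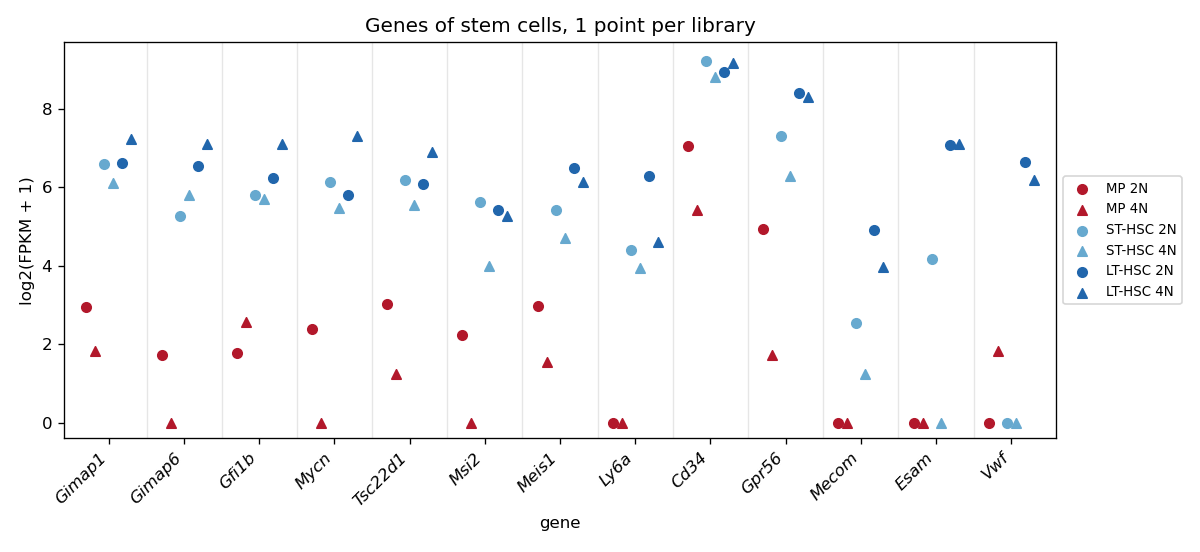
Log2(FPKM + 1) of genes of stem cells, with 1 point per library: MP in red, ST-HSC in light blue, LT-HSC in dark blue, circles for day 2 and triangles for day 4. For Gimap1 to Gpr56 both MP points lie below all 4 stem cell points, while Esam and Vwf are highest in LT-HSC and at or near 0 in ST-HSC 4N as well as in MP.

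Gfi1b, a repressor needed for both lines (ENSMUSG00000026815), had 2.44 and 4.92 FPKM in MP against 73.8, 54.9, 135 and 51.0 in LT-HSC 2N, ST-HSC 2N, LT-HSC 4N and ST-HSC 4N, a difference of -4.03 ± 0.457 (SE; limma adjusted p = 0.0609). Car2, carbonic anhydrase, had 45.1 and 7.23 FPKM in MP against 1434, 351, 1554 and 147 in stem cells, and Hemgn was listed at 0 in both MP libraries against 27.5, 12.5, 59.0 and 8.87 in stem cells. Nrgn, a platelet gene, had 3.69 and 0 FPKM in MP against 76.0, 40.3, 65.5 and 12.8 in stem cells. Gata1 did not separate the groups, at 16.8 and 8.06 FPKM in MP against 0, 0, 40.6 and 2.02 in stem cells. Of 13 erythroid and platelet transcription factors tested 7 were below both stem libraries of the day at both days and none above (median -0.63), of 11 erythroid genes 5 and none (median -1.14), and of 20 megakaryocyte and platelet genes 5 and 1 (median -1.76); of all genes 17.9% were below and 15.4% above. The haemoglobin genes Hba-a1 and Hba-a2 and the erythroid gene Alas2 were listed at 0 in all 6 libraries. Nfe2, a platelet line factor, had 181 and 259 FPKM in MP against 461, 303, 658 and 341 in stem cells, and Tal1, an early blood factor, 19.8 and 23.7 against 72.9, 41.9, 80.1 and 30.8 in stem cells; both passed as lower against LT-HSC alone (limma adjusted p = 0.0234 and 0.0418) but not against ST-HSC alone (0.4 and 0.505).

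Among the remaining genes with the smallest p or the largest fold as lower in MP, Krt18, a keratin, was listed at 0 in both MP libraries against 166, 29.6, 80.0 and 7.46 in stem cells FPKM in LT-HSC 2N, ST-HSC 2N, LT-HSC 4N and ST-HSC 4N. The other epithelial genes Krt8, Krt19 and Krt14 were listed at 0 throughout. Spns2, a transporter of sphingosine 1-phosphate, had 18.8 and 6.97 FPKM in MP against 407, 158, 342 and 110 in stem cells. Tspan13 had 17.8 and 4.91 FPKM in MP against 153, 137, 147 and 73.5 in stem cells, and Ctxn1 2.24 and 0.778 against 32.8, 38.6, 48.6 and 29.5 in stem cells. Pglyrp2 and CT025602.1 were listed at 0 in both MP libraries, with 12.1 to 40.5 and 11.3 to 28.6 FPKM in the stem libraries. Gm8292, Myl10 and 9030619P08Rik were lower in both MP libraries than in every stem library too. Plscr2, Pdzk1ip1, Art4 and Angpt1 were the 4 of 24 other stem cell signature genes that met the 4-fold rule (0.565% of all genes did as lower). Angpt1 had 0.537 and 0 FPKM in MP against 29.0, 19.8, 5.23 and 4.50 in stem cells.

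No cell cycle gene passed in the fit against both stem types. That fit called 0 of all 11684 genes, so this is not particular to the cell cycle. Of 41 genes of G1/S and replication, 24 were below both stem libraries of the day at both days (17.9% of all genes were) and none above, with a median of -0.53. Mcm6, a subunit of the replicative helicase, had 165 and 148 FPKM in MP against 290, 302, 415 and 301 in stem cells, and Pcna, the sliding clamp, 85.3 and 52.0 against 226, 247, 148 and 69.3 in stem cells. Of 40 genes of G2/M and mitosis 7 were above (15.4% of all genes were) and 2 below, with a median of 0.30 that had the other sign between MP 4N and ST-HSC 4N (-0.32). Aurka, a mitotic kinase, had 129 and 97.9 FPKM in MP against 16.9, 41.9, 24.7 and 84.3 in stem cells. Ube2c, of the mitotic ubiquitin pathway, had 574 and 254 FPKM in MP 2N and MP 4N against 165, 131, 147 and 258 in stem cells. Interferon response genes had 10 of 27 below (17.9% of all genes were) and none above (median -0.76). Of them 0 met the 4-fold rule, which 0.565% of all genes met as lower. Tap2, a peptide transporter of antigen presentation, had 2.84 and 1.91 FPKM in MP against 10.9, 11.6, 11.3 and 8.94 in stem cells, and H2-K1 had 423 and 431 against 1076, 1141, 1257 and 526 in stem cells, though related H2 genes may share reads.

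**Figure D5:**
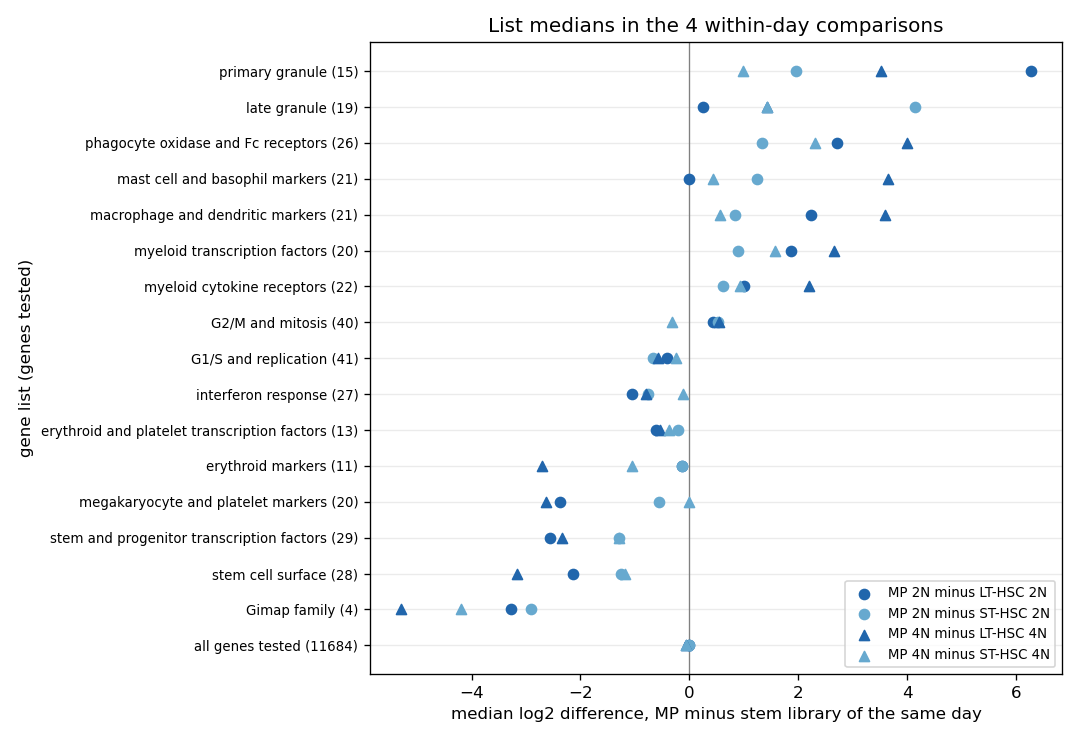
Median log2 difference of each gene list (genes tested in brackets) in the 4 within-day comparisons, MP minus LT-HSC in dark blue and MP minus ST-HSC in light blue, circles for day 2 and triangles for day 4. The primary granule median lies at 0.99 to 6.27 and the Gimap median at -5.29 to -2.92, while all genes tested lie near 0.

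Whether the MP to stem difference changed with culture time was tested as an interaction of MP with day. It called 0 of 11684 genes (0.0%), and 252 had an unadjusted p under 0.05 (2.16%). The 6 with the smallest p whose signed log2 difference, MP minus stem, was higher at day 4 were Tpsab1, Cma1, Chi3l3, Gzmb, S100a4 and 1300014I06Rik. Chi3l3, the chitinase-like protein of myeloid cells, had 150 and 607 FPKM in MP 2N and MP 4N, against 166 in LT-HSC 2N, 32.9 in ST-HSC 2N and 0 in both day-4 stem libraries. The 6 whose signed difference was lower at day 4 were Cd27, Zbtb17, 1700123O20Rik, Ccdc22, 9030619P08Rik and Ptprcap. Zbtb17, 1700123O20Rik and Ccdc22 had at most 1.33 FPKM in both day-2 stem libraries and at least 30.3 FPKM in MP and in the day-4 stem libraries.

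The uncultured cells gave a second view of the same cell types. Elane and Prtn3 had 19235 and 21209 FPKM in MP 0, 13554 and 16683 in LT-HSC 0 and 44.7 and 797 in ST-HSC 0. For these granule genes LT-HSC 0 stood closer to MP 0 than to ST-HSC 0. Its stem cell genes were mixed. Ly6a had 367 FPKM in LT-HSC 0, 177 in ST-HSC 0 and 0.889 in MP 0, and Gimap6 had 349, 617 and 26.5. Cd34 went the other way, at 16.1 FPKM in LT-HSC 0, 421 in ST-HSC 0 and 85.7 in MP 0. The test of whether the MP to stem difference in N cultures differed from that in uncultured cells called 0 of 12060 genes (0.0%), with 1132 at an unadjusted p under 0.05 (9.39%), and 0 without LT-HSC 0 too, with 1771. The smallest p went to Crem, Snord16a, Cytip, Id1, Pygm and B4galt5 as more positive in N, and to Alkbh7, 2010012P19Rik, Car1, Rad51l1, Mad2l1 and Wdr55 as more negative. Crem, a transcription factor of the cAMP response, had 11.8 and 6.25 FPKM in MP 2N and MP 4N and 6.97, 7.53, 2.78 and 1.27 in the 4 stem libraries of N, whereas MP 0 had 12.4 against 399 in LT-HSC 0 and 517 in ST-HSC 0. Of the 77 genes 4-fold higher in MP in N, 39 (50.6%) were above both uncultured stem libraries in MP 0, and of the 66 lower, 41 (62.1%) were below both; over all genes tested MP 0 was above both for 38.2% and below both for 26.7%.

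Against the D cultures, read here as those with doxycycline, the granule genes differed in level. Elane had 4.19 and 3.50 FPKM in MP 2D and MP 4D, against 1.28 in LT-HSC 2D, 15.4 in ST-HSC 2D, 0 in LT-HSC 4D and 2.75 in ST-HSC 4D, and Prtn3 had 16.5 and 10.9 in MP against 2.42, 70.5, 1.44 and 45.9 in stem cells. The high level of both genes in MP 2N and MP 4N was thus not seen in MP under D. The test of the difference between N and D called 0 of 12254 genes (0.0%), with 1082 at an unadjusted p under 0.05 (8.83%). AY036118, Ms4a2, Tifab, Fcer1a, Cebpe and Csf2ra had the smallest p as more positive in N, each with a limma adjusted p of 0.225, and Sox4, Apod, Avil, Dbx1, Tspan13 and Gm11223 as more negative. Csf2ra was the other way round in D, at 0.821 and 0.547 FPKM in MP 2D and MP 4D against 5.61, 10.6, 1.10 and 8.51 in LT-HSC 2D, ST-HSC 2D, LT-HSC 4D and ST-HSC 4D. Sox4 had 225 and 76.1 FPKM in MP under D against 106, 139, 17.4 and 40.6 in stem cells. In D, 6 of the 77 higher genes (7.8%) were above the stem library in all 4 comparisons, against 14% of all genes. Of the 66 lower genes 15 (22.7%) were below in all 4, against 11.2% of all genes. On the opposite side in all 4 lay 3 of the higher and 1 of the lower genes. A tie at 0, as for Cebpe and Fcer1a in all D blood libraries, counts on neither side.

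C/EBP and PU.1 letters were also counted in front of the genes of the 4-fold rule, of which 52 of the 77 higher and 46 of the 66 lower had a RefSeq window. TTGCNNAA was in 13 of the 52 windows of higher genes (25.0%), 2 of the 46 of lower genes (4.3%) and 7.3% of the windows of all genes tested. GAGGAAG was in 14 (26.9%), 2 (4.3%) and 11.1%. AGATAA was in 9 (17.3%), 9 (19.6%) and 5.7%, and TGTGGT in 13 (25.0%), 4 (8.7%) and 10.8%. These are shares of windows that hold the letters, without a test.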

How the data were processed

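The authors deposited 1 table of FPKM values per gene, with reads aligned to mm9 and levels estimated with TopHat and Cufflinks, per the submitters' processing notes; which versions and which annotation were used is not stated there. Per the labels' protocols, RNA of each pool of 25 cells was reverse transcribed from polyA tails, tailed and amplified by PCR, so values lean to 3' ends and low genes are uneven between libraries. The FPKM of entries with the same symbol were summed. Read depth is unknown, since low values held no steps of whole reads, and neither counting intervals nor floors could be given. Genes averaging at least 1 FPKM in a fit's libraries were tested on log2(FPKM + 1) with limma 3.58.1 in R 4.3.3 (trend and robust), with terms for day and for MP, two-sided, with Benjamini-Hochberg adjustment over all genes tested and a threshold of 0.05. This fit had 3 residual degrees of freedom, and fits against LT-HSC or ST-HSC alone had 1. The tests of a difference between differences covered the N with the uncultured or D blood libraries. The fit was also run on simulated data with noise drawn independently for each library. Those data lacked a gap between LT-HSC and ST-HSC shared by both days, so they do not show how the fit handles it. Figures were drawn with matplotlib 3.10.9 in Python 3.11.15. Named genes were the 12 each way with the smallest p, the 6 each way with the largest 4-fold difference, the 6 each way with the smallest p in each test of differences, and members of the 31 gene lists, where 8 lists could be given in full and examples of the others were the members with the smallest p. The members and lists were chosen with earlier results of these data known. Alternatives changed the added value, the filter, the scaling, the terms and the libraries. Sequences came from RefSeq, GRCm38.p6.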

Additional observations from a re-analysis of the deposited data

Results flagged for a closer look

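In 28 comparisons of named genes, within-day differences between MP and stem libraries all shared a sign within each library set, opposite between the sets. The limma test of the difference did not pass for any of them. The named genes include those picked for the smallest p in these same tests. How often such opposite signs occur over all genes was not counted. Values are differences of log2 differences. Between N and uncultured cells, where 1 MP library stood against 2 stem libraries and LT-HSC 0 carried granule genes, the values were positive for Klf4 (7.29, limma adjusted p = 0.274), Crem (6.06, 0.229), Cytip (5.43, 0.239), Id1 (4.01, 0.274), Lyz2 (3.28, 0.58), Sfpi1 (2.16, 0.433) and Ctsc (1.91, 0.484). They were negative for Rad51l1 (-7.41, 0.274), Gfi1b (-7.32, 0.303), Alkbh7 (-5.86, 0.169), Car2 (-5.85, 0.352), Hoxa7 (-4.30, 0.305), Mad2l1 (-3.15, 0.274), Gimap9 (-2.82, 0.475), Mcm6 (-2.32, 0.287) and Pcna (-1.45, 0.525). Gfi1b, for example, differed by -4.03 in N and by 3.29 in uncultured cells.

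Between N and D the values were positive for Cebpd (5.25, limma adjusted p = 0.225), Csf2ra (4.59, 0.225), Srgn (4.53, 0.428), Xbp1 (3.08, 0.38) and AY036118 (2.71, 0.225), and negative for Sox4 (-4.28, 0.225) and Gm11223 (-1.81, 0.225). Csf2ra differed by 2.69 in N and by -1.90 in D.

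Between day 4 and day 2 of N the values were 6.46 for 1300014I06Rik, 2.60 for S100a4 and 2.57 for Procr, and -6.45 for Zbtb17 and -1.40 for Myb, with limma adjusted p from 0.903 to 1.0. S100a4, a calcium-binding protein, had 315 and 1208 FPKM in MP 2N and MP 4N, against 1608, 1359, 1099 and 799 in LT-HSC 2N, ST-HSC 2N, LT-HSC 4N and ST-HSC 4N.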

How the results depend on the processing

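No replicate numbers pair the libraries, and culture day served as the block. The limma count of 0 genes apart in MP went to 4 with a mean of at least 10 FPKM, 22 without the term for day, 16 with all 15 blood libraries, 571 against LT-HSC alone, 107 against ST-HSC alone and 251 with 1 term per cell type, added after the data were seen; leaving out 1 library gave 0 to 1, the 1 without MP 2N. The 143 genes 4-fold apart went to 282 with 0.1 added, 18 with 10 added and 90 with a mean of at least 10 FPKM. Leaving out 1 library gave 158 to 644, with 644 without MP 2N, 421 without MP 4N, 246 without ST-HSC 2N and 261 without ST-HSC 4N, where fewer comparisons had to be met. The test of N against uncultured cells gave 2 with 0.1 added, 21 with 10 added and 0 to 0 without 1 library, LT-HSC 0 included. That of N against D gave 29 with 10 added and 0 to 3 without 1 library (3 without MP 2N, 1 without LT-HSC 2N). The day test gave 0 throughout and could not be fitted without either MP library.

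Of 1994 values of 111 named genes under the alternatives, 26 changed sign, all of 13 genes that did not separate the groups. Against ST-HSC alone these were Irf8 (-0.021), Cd48 (-0.99), Gata2 (0.38), Kit (0.30), Slc18a2 (0.78) and Rab27b (0.53), and against LT-HSC alone S100a9 (-0.68), Ltf (-0.38) and Procr (-0.053). Without 1 library the range was -0.088 to 1.59 for Csf3r, -0.75 to 5.02 for S100a9, -0.32 to 3.16 for Ltf, -1.82 to 7.88 for Prss34, -1.20 to 0.41 for Gata2, -1.02 to 0.39 for Myb, -0.51 to 0.37 for Kit, -0.31 to 4.15 for Gata1, -1.40 to 0.28 for Slc18a2, -2.22 to 0.35 for Rab27b and -0.77 to 1.80 for Procr. Of 371 list medians under the alternatives 23 moved, 7 of them with 0.1 added, and 16 took another sign, all in lists whose medians are not given here. Scaling moved the median of all genes from -0.06 to between -0.10 and -0.01. Depth limits low values, where a listed 0 may be a missed gene.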
